A study of Homo sapiens with 4 samples.

Results

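The genes described here are the forkhead factors FOXO1, FOXO3 and FOXO4, the insulin receptor INSR, the IGF1 receptor IGF1R, and the receptor adaptors IRS1 and IRS2. These 7 genes were chosen by symbol, for their known place in the pathway, from the 60558 Ensembl genes listed for each library. The choice was made with earlier results of these data known. All 7 were matched through GENCODE release 44 and had reads in all 4 libraries. A549 and HCC827 are established human lung adenocarcinoma (LAD) cell lines. Each line had been transduced with an empty vector or with myr-AKT1, an AKT1 kinase with a myristoylation signal that anchors it to the membrane and keeps it active. The study made these libraries to look for lncRNAs that act downstream of active AKT. The 4 groups, called A549-vector and A549-myr-AKT1 for one line and HCC827-vector and HCC827-myr-AKT1 for the other, have 1 library each, so no difference within a line has a replicate check. The construct is permanently active, and whether the cells were single clones or pools is not given in the sources used here.

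FOXO factors are transcription factors that AKT phosphorylates, after which they are held in the cytoplasm and cannot act on their targets. When AKT is inactive they enter the nucleus and induce genes of growth arrest, cell death, autophagy and gluconeogenesis. Their known targets also include INSR, IGF1R and IRS2, so that a cell with low AKT activity makes more of the receptors and adaptors that activate AKT, a negative feedback loop. The rule for the 7 genes rests on this loop, and the mRNA data below do not measure where FOXO proteins are or whether they are phosphorylated.

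Values are normalized read counts, that is, reads of a gene divided by 1 size factor per library, estimated by the authors within the 2 libraries of a line. Recovered reads per library ranged from 16322183 to 33530317. A log2 fold change is that of the normalized count in myr-AKT1 over vector cells of the same line, and its 95% Clopper-Pearson interval covers counting error only. AKT1 itself had 6297 normalized counts in A549-myr-AKT1 against 4243 in A549-vector, and 4805 in HCC827-myr-AKT1 against 2175 in HCC827-vector, without separation of construct and endogenous reads. All 5 epithelial markers (EPCAM, KRT7, KRT8, KRT18 and KRT19) had reads in every library. Their summed normalized counts were 190076 in A549-vector and 158083 in A549-myr-AKT1, and 144296 in HCC827-vector and 64932 in HCC827-myr-AKT1. All 5 were lower with myr-AKT1 in HCC827, among them KRT8 by a log2 fold change of -1.81 and KRT18 by -1.75, whereas in A549 KRT19 was higher by 2.65. The 8 markers of blood, endothelium and fibroblasts summed to 20.96 in A549-vector, 187 in A549-myr-AKT1, 103 in HCC827-vector and 159 in HCC827-myr-AKT1. CD3E was at 0 throughout. The sum was higher in the myr-AKT1 library of each line, but not every marker was. From A549-vector to A549-myr-AKT1, CDH5 went from 1 to 59 reads, CD68 from 2 to 19, DCN from 0 to 13 and PTPRC from 1 to 7. VWF went from 1 to 0 there. In HCC827, PTPRC went from 5 to 0 reads and DCN from 5 to 3, while CDH5 went from 8 to 11 and VWF from 10 to 15. PDGFRB was lower in both lines but near the limit of detection, from 6 to 4 reads in A549 and 4 to 1 in HCC827. PECAM1 had the largest value in every library, 11.35 and 69.85 in A549 and 61.99 and 105.7 in HCC827 (vector and myr-AKT1). The HCC827-myr-AKT1 library, where the largest differences of the 7 genes lie (INSR and FOXO4), thus also had the lowest epithelial sum. This does not hold for all genes below, as TXNIP differed more in A549 and BCL6 more in HCC827. The part of either marker list in the results was not tested.

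All 3 FOXO factors had higher mRNA levels in the myr-AKT1 library of both lines, by more than counting error. FOXO4, on the X chromosome (71095851 to 71103532, plus strand of GRCh38, ENSG00000184481), showed the largest difference of the 3. It had 165 normalized counts in A549-vector, 334 in A549-myr-AKT1, 184 in HCC827-vector and 576 in HCC827-myr-AKT1, from 189, 292, 231 and 458 reads. The myr-AKT1 library was the higher one in each line, more clearly so in HCC827. The log2 fold change in A549 was 1.02 (95% counting interval 0.75 to 1.29), and HCC827 had 1.65 (1.42 to 1.88). FOXO4 alone among the 7 passed 1 on the log2 scale in each line, the interval in A549 reaching below that threshold. In the background, of 12051 genes averaging 50 or more normalized counts in each pair, 3.11% were past 1 and higher in both lines and 4.1% past -1 and lower in both.

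FOXO3 (ENSG00000118689), on chromosome 6 (108559835 to 108684774, plus strand), had 740 normalized counts in A549-vector and 1139 in A549-myr-AKT1. In HCC827 cells it had 1952 with vector and 3311 with myr-AKT1. The HCC827 libraries were higher than the A549 libraries, and the myr-AKT1 library was the higher one within each line. The log2 fold changes of FOXO3 were close to each other, 0.62 in A549 (0.49 to 0.76) and 0.76 in HCC827 (0.68 to 0.84). The A549 value may depend on how reads were split with a copy that shares part of its sequence, which was not tested. Of the 50-base stretches of FOXO3 transcripts, 35.6% also occur in FOXO3B, a copy that GENCODE lists as a gene of its own and that went the other way in A549, from 547 normalized counts with vector to 297 with myr-AKT1. With the reads of FOXO3 and FOXO3B added together, the log2 fold change in A549 was 0.16 (95% counting interval 0.05 to 0.27), and HCC827 had 0.68 (0.61 to 0.76), so the size of the FOXO3 difference in A549 is uncertain.

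FOXO1 (ENSG00000150907), on the minus strand of chromosome 13 (40555667 to 40666641), had the smallest differences of the 3 factors. Its normalized counts were 357 in A549-vector, 496 in A549-myr-AKT1, 269 in HCC827-vector and 335 in HCC827-myr-AKT1. The log2 fold change in A549 was 0.47 (95% counting interval 0.27 to 0.67), and HCC827 had 0.31 (0.08 to 0.55). An annotated lncRNA gene, ENSG00000288542, lies on the same strand and shares 21.7% of the 50-base stretches of FOXO1. It is not among the genes listed for the libraries, so it had no count of its own. The fourth family member, FOXO6, was near the limit of detection with 9 to 21 reads per library. Its log2 fold change in A549 was 1.46 (95% counting interval 0.31 to 2.71), and HCC827 had 1.40 (0.11 to 2.77).

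**Figure D1:**
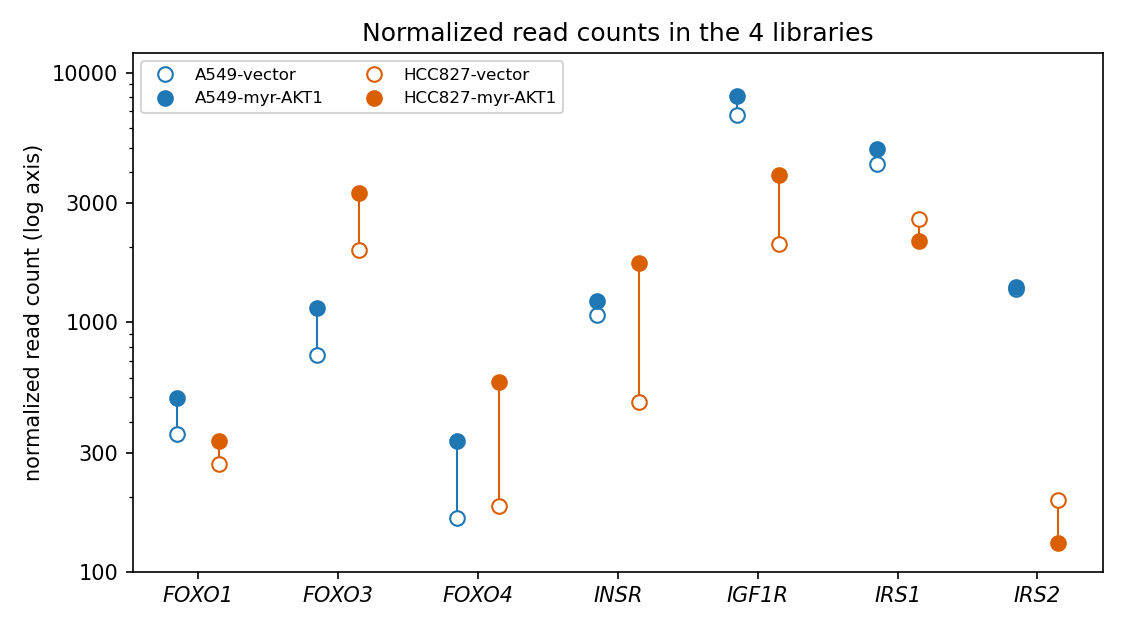
Normalized read counts (y axis, log scale) of the 7 genes in vector (open circles) and myr-AKT1 (filled circles) libraries of A549 (blue) and HCC827 (orange), 1 library per circle, with a line joining the libraries of a pair. The filled circle lies above the open one for FOXO1, FOXO3, FOXO4, INSR and IGF1R in both lines, and below it for IRS1 and IRS2 in HCC827. Levels of the lines were scaled separately.

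Because AKT acts on FOXO proteins that bind DNA, the start regions of the genes were searched for the letters of known FOXO sites: GTAAACA, its shorter core TAAACA, and CAAAACA, which is known as an insulin response sequence, each on both strands. TAAACA lies within GTAAACA, so a match to the longer one is also a match to the shorter. The windows are the RefSeq promoters on GRCh38.p14, from 250 bases before to 50 bases after a start site, and all 7 genes had at least 1, 10 in total. Among all 35116 windows, 3.42% hold GTAAACA, 12.3% TAAACA and 4.92% CAAAACA. Only the FOXO4 window of these 10 holds GTAAACA, at 71095874 to 71095880 in the part that GENCODE annotates as untranslated. It is shown with the matched letters in capitals because FOXO4 alone among the 7 was past the threshold in both lines.
FOXO4, chrX:71095601-71095880, plus strand: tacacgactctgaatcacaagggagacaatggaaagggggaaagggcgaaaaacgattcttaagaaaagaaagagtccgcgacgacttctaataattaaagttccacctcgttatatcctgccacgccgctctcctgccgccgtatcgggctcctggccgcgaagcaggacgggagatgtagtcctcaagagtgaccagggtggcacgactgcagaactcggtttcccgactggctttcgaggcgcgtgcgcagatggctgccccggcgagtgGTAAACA
The window before the start of INSR, the gene of the 7 with the largest difference in HCC827, holds none of the 3 in these letters. It is shown for comparison.
INSR, chr19:7294415-7294664, minus strand: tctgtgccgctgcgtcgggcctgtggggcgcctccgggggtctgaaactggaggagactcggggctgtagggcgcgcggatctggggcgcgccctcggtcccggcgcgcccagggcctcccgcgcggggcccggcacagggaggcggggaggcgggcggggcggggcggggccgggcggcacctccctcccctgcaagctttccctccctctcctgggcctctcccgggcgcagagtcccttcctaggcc
TAAACA was also found at the end of the IGF1R window, in the untranslated part, and in 1 of 4 FOXO3 windows, in an intron. CAAAACA was found in the IRS2 window, 40 bases before the start. In both IGF1R and IRS2 the match is on the other strand, so the capitals show it as TGTTTA and TGTTTTG. The stretches are shown because IRS2 and IGF1R are known FOXO targets and FOXO3 is itself a FOXO factor.
IGF1R, chr15:98648559-98648588, plus strand: gcggcgcggcgaggctggggctctTGTTTA
FOXO3, chr6:108560671-108560700, plus strand: cccgagcgaaacaTAAACAaacgcacgcac
IRS2, chr13:109786591-109786650, minus strand: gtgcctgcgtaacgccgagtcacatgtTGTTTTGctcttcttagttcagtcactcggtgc
A match is a description of the letters and says nothing of binding. The windows of FOXO1 and IRS1 held none of the 3. The gene with GTAAACA and the gene with CAAAACA went in different directions in HCC827, where FOXO4 was higher and IRS2 was lower with myr-AKT1.

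The receptor mRNAs were higher in the myr-AKT1 libraries of both lines, to a small extent in A549 and to a much larger one in HCC827. INSR (ENSG00000171105), on the minus strand of chromosome 19 (7112255 to 7294414), encodes the insulin receptor. It had 1070 normalized counts in A549-vector, 1217 in A549-myr-AKT1, 481 in HCC827-vector and 1724 in HCC827-myr-AKT1. The log2 fold change in A549 was 0.19 (95% counting interval 0.07 to 0.31), and HCC827 had 1.84 (1.70 to 1.98), a 3.59-fold higher level. The log2 fold change in HCC827 exceeded that in A549 by 1.66, with a counting interval of 1.47 to 1.84. With 1 library per condition this difference between the lines was not tested across cultures.

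IGF1R (ENSG00000140443), on the plus strand of chromosome 15 (98648539 to 98964530), encodes the receptor for IGF1 and IGF2. It had the most reads of the 7 genes in A549, with 6798 normalized counts in A549-vector and 8078 in A549-myr-AKT1. In HCC827 cells it had 2065 with vector and 3899 with myr-AKT1. The myr-AKT1 library was again the higher one in each line. Its log2 fold change in A549 was 0.25 (95% counting interval 0.20 to 0.30), and HCC827 had 0.92 (0.84 to 0.99), a difference between the lines of 0.67 (0.58 to 0.76).

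The adaptor mRNAs did not follow the receptors. IRS1 (ENSG00000169047), on the minus strand of chromosome 2 (226731312 to 226799820), encodes the adaptor that links the activated receptors to PI3K. It had 4320 normalized counts in A549-vector, 4946 in A549-myr-AKT1, 2602 in HCC827-vector and 2116 in HCC827-myr-AKT1. The log2 fold change of IRS1 was 0.20 in A549 (0.14 to 0.25) and -0.30 in HCC827 (-0.38 to -0.21), so the direction differed between the lines. IRS2 (ENSG00000185950), on the minus strand of chromosome 13 (109752695 to 109786583), encodes the second adaptor. It had 1355 normalized counts in A549-vector, 1388 in A549-myr-AKT1, 194 in HCC827-vector and 131 in HCC827-myr-AKT1. Its log2 fold change was 0.03 in A549, where the interval of -0.08 to 0.14 includes 0, and -0.57 in HCC827 (-0.91 to -0.23), from 104 and 244 reads.

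**Figure D2:**
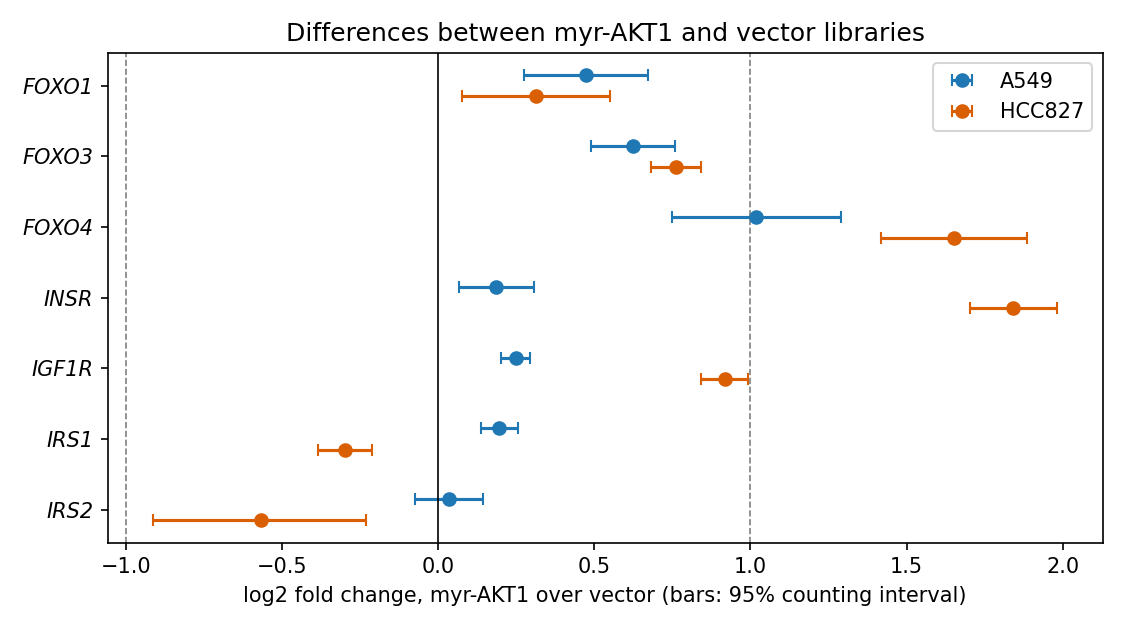
Log2 fold changes of myr-AKT1 over vector (x axis) of the 7 genes in A549 (blue) and HCC827 (orange), with 95% counting intervals as bars and dashed lines at 1 and -1. INSR and IGF1R lie further to the right in HCC827 than in A549, and IRS1 lies on different sides of 0 in the 2 lines.

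In A549 cells 1 of the 7 genes (FOXO4) was past a log2 fold change of 1 and higher, against 11.2% of the 13965 genes that averaged 50 or more. In HCC827 cells 2 of 7 were (FOXO4 and INSR), against 10.2% of 13096 genes. None of the 7 was past -1, where 7.9% of all genes were in A549 and 10.3% in HCC827. The median log2 fold change of the 7 genes was 0.25 in A549 and 0.76 in HCC827, and that of all genes was -0.07 and -0.06. A total of 7 of 7 genes were above 0 in A549, where 45.6% of all genes were, and 5 of 7 in HCC827, where 46.2% of all genes were. Since the 7 were chosen with earlier results of these data known, these counts are no independent evidence of a direction. The median log2 fold change of protein-coding genes with 8 kb or more of exon was -0.02 in A549 and -0.05 in HCC827. INSR, IGF1R, IRS1 and IRS2 are in that range. For 5 to 8 kb, the range of FOXO1 and FOXO3, it was -0.08 and -0.04. For 2 to 5 kb, the range of FOXO4, it was -0.13 and -0.08.

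In a fit over all 4 libraries with cell line as a block, no gene of the 7 passed a Benjamini-Hochberg adjusted p of 0.05 from limma, where 1.29% of 19314 genes were called higher and 1.73% lower. The fit has 1 residual degree of freedom. FOXO4 had the lowest adjusted p of the 7, with a log2 fold change of 1.33 (standard error 0.38, unadjusted p = 0.00886, adjusted p = 0.121 from limma), and it was higher in 2 of 2 lines. FOXO3 had 0.69 (standard error 0.25, adjusted p = 0.199) and INSR 1.01 (standard error 0.40, adjusted p = 0.229). The unadjusted p from limma was under 0.05 for these 3 genes, as it was for 3557 of the 19314 genes in the fit. The adjusted p of the other 4 was 0.299 for IGF1R, 0.609 for FOXO1, 0.741 for IRS2 and 0.945 for IRS1. Across 7 versions of the fit, the adjusted p of FOXO4 ranged from 0.0237 to 0.999999 and that of INSR from 0.0351 to 0.999999.

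Ratios between the genes within a library are free of the scaling between libraries. Per kilobase of annotated exon, the INSR level was 0.203 of the IGF1R level in A549-vector cells (95% counting interval 0.191 to 0.215) and 0.194 in A549-myr-AKT1 cells (0.182 to 0.207), which overlap. In HCC827 cells it was 0.2997 with vector (0.274 to 0.328) and 0.569 with myr-AKT1 (0.534 to 0.607). The balance of the receptors thus lay further towards INSR in the HCC827-myr-AKT1 library than in the other 3. The ratio of INSR to IRS1 with myr-AKT1 was 4.41 times the vector ratio in HCC827 and 0.994 of it in A549. The ratio of IRS2 to IRS1 was 0.385 and 0.345 in the A549 libraries and 0.0915 and 0.0760 in the HCC827 libraries (vector and myr-AKT1), so IRS1 was the more abundant adaptor mRNA in all 4 libraries. Among the FOXO factors, the FOXO4 to FOXO1 ratio was 0.726 in A549-vector and 1.06 in A549-myr-AKT1, and 1.07 in HCC827-vector and 2.71 in HCC827-myr-AKT1. The log2 change of that ratio was 0.55 in A549 (0.22 to 0.87) and 1.34 in HCC827 (1.01 to 1.66), both above 0 by more than counting error.

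Levels between the lines were set on a common scale with size factors over all 4 libraries and are given per kilobase of exon. In the vector libraries, FOXO3 was at 81.4 in A549 and 286 in HCC827, a 3.52-fold higher level in HCC827. With the reads of FOXO3B added, the gap was 2.29-fold (95% counting interval 2.15 to 2.44). IRS2 showed the reverse and the largest gap, with 140 in A549 and 26.7 in HCC827, a 5.24-fold higher level in A549. IGF1R was 2.47-fold and INSR 1.67-fold higher in A549-vector cells. FOXO4 was 1.48-fold higher in HCC827-vector cells. FOXO1, at 50.6 and 50.9, did not differ beyond counting error, the log2 ratio of 0.01 having an interval of -0.20 to 0.22. With 1 vector library per line, these gaps cannot be told apart from differences between single cultures.

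The order of the levels per kilobase also differed between the lines. In A549-vector cells it ran from IGF1R (412) through IRS1 (364), IRS2 (140), INSR (83.3), FOXO3 (81.4) and FOXO1 (50.6) to FOXO4 (36.7), where INSR and FOXO3 did not differ beyond counting error. In HCC827-vector cells it ran from IRS1 (292) and FOXO3 (286), which did not differ beyond counting error, through IGF1R (167), FOXO4 (54.5), FOXO1 (50.9) and INSR (49.9) to IRS2 (26.7), where FOXO4 and FOXO1, and FOXO1 and INSR, did not differ beyond it either. In HCC827-myr-AKT1 cells FOXO3 was highest (502), followed by IGF1R (325), IRS1 (246), INSR (185) and FOXO4 (177), the last 2 of which were not separated by counting error, then FOXO1 (65.4) and IRS2 (18.7). In A549-myr-AKT1 cells the order was IGF1R (525), IRS1 (447), IRS2 (154), FOXO3 (135), INSR (102), FOXO4 (79.9) and FOXO1 (75.4), with FOXO4 and FOXO1 not separated. FOXO3 made up 72.5% of the summed level of FOXO1, FOXO3, FOXO4 and FOXO6 in HCC827-vector cells and 66.7% in HCC827-myr-AKT1 cells, against 47.4% and 45.1% in A549. With FOXO3B reads counted as FOXO3, its shares were 60.8% in A549-vector, 50.5% in A549-myr-AKT1, 74.7% in HCC827-vector and 67.9% in HCC827-myr-AKT1, and its A549-vector level of 139.9 lay next to that of IRS2 in the order. The share of FOXO4 was 21.4% in A549-vector and 26.8% in A549-myr-AKT1, and 13.8% in HCC827-vector and 23.5% in HCC827-myr-AKT1.

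Several related genes and ligands had few or no reads. IRS4 and INSRR, paralogs of the adaptors and of the insulin receptor, had 0 to 2 reads in every library, and INS had 0. IGF2R, which binds IGF2 and carries it to lysosomes, had 4703 normalized counts in A549-vector and 5158 in A549-myr-AKT1, and 6477 and 9574 in HCC827, a log2 fold change of 0.13 (0.08 to 0.19) and 0.56 (0.52 to 0.61). The ligand gene IGF1 had 0 reads in A549-vector and 55 in A549-myr-AKT1, at least 24.04-fold higher against a floor of 3 reads per library, and 123 and 53 reads in HCC827, a log2 fold change of -0.55 (-1.04 to -0.08). IGF2 had 3 reads in A549-myr-AKT1 and 0 elsewhere. FOXO1B, a processed pseudogene of FOXO1, had 23 reads in A549-vector and 3 in A549-myr-AKT1, a ratio of normalized counts of 0.171 (0.0329 to 0.566), and 0 in HCC827.

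Of 16 genes that act next to the receptors, 1 was past a log2 fold change of 1 in A549, GRB10, an adaptor that inhibits insulin receptor signalling (1.18, interval 1.10 to 1.27). In HCC827 cells 2 were higher, SH2B2 with 1.24 (0.93 to 1.56) and the ubiquitin ligase CBLB with 1.18 (1.04 to 1.32), and 1 was lower, CAV1, the caveolae protein, at -2.99 (-3.07 to -2.90). Over all genes the shares past the threshold were 11.2% higher in A549, and 10.2% higher and 10.3% lower in HCC827, so the counts of this list are close to the background. None was past 1 in the same direction in both lines, and the median was 0.21 in A549 and 0.07 in HCC827. Among 10 genes that inhibit or degrade IRS proteins, 8 were measured above the minimum, 0 were past 1 in A549 and 1 was in HCC827, where the all-gene shares were 11.2% and 10.2%. That was CUL7, the scaffold of a ubiquitin ligase known to degrade IRS1, with 456 normalized counts in HCC827-vector and 1560 in HCC827-myr-AKT1 (log2 fold change 1.77, 1.63 to 1.92), and 0.71 in A549 (0.58 to 0.84). The genes named in this paragraph were chosen after their values were seen, and none of them passed the fit across both lines.

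Among 22 genes that act on FOXO proteins, 15 of 22 had a log2 fold change below 0 in each line, where 54.4% of all genes did in A549 and 53.8% in HCC827. The median was -0.22 and -0.19. SKP2, the ubiquitin ligase subunit known to mark FOXO1 and the cell cycle inhibitor p27 for degradation, was the only one past -1 in both lines, where 4.1% of all genes were. It had 1384 normalized counts in A549-vector, 499 in A549-myr-AKT1, 1769 in HCC827-vector and 584 in HCC827-myr-AKT1, so that the myr-AKT1 library was the lower one in each line. Its log2 fold changes were -1.47 (-1.63 to -1.32) and -1.60 (-1.75 to -1.45), and it was the 1 gene of the 22 that passed the fit (log2 fold change -1.53, adjusted p = 0.0307 from limma), lower in 2 of 2 lines, in a fit that called 1.73% of all genes lower. Of 7 versions of the fit, 4 called it. Past 1 in 1 line alone were SGK1, a kinase related to AKT that also phosphorylates FOXO3, with 2.23 in A549 (2.11 to 2.36), YWHAH, which encodes a phosphoserine-binding protein, with -1.18 in A549 (-1.29 to -1.07), and AKT1, the gene of the construct, with 1.14 in HCC827 (1.07 to 1.21). SGK1 and YWHAH were named after their values were seen. Of the 22 genes, 1 was past 1 and 2 past -1 in A549, where 11.2% and 7.9% of all genes were. In HCC827 1 was past 1 and 1 past -1, where 10.2% and 10.3% of all genes were.

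Of 33 genes known to be induced by FOXO factors, 28 averaged 50 or more normalized counts in the A549 pair and 25 in the HCC827 pair. In A549 cells 10 of 28 were higher past a log2 fold change of 1 and 1 was lower. HCC827 had 7 of 25 higher and 1 lower. Of all genes, 11.2% were higher and 7.9% lower in A549, and 10.2% were higher and 10.3% lower in HCC827. PCK1 in A549 and BBC3 in HCC827 were under 50 with vector and entered only through the myr-AKT1 library, where they are high, as did 476 and 349 of all genes that were higher. Without such genes the counts of higher genes were 9 of 27 and 6 of 24, and 8.11% and 7.79% of all genes. The 1 lower gene in HCC827, IGFBP1, was under 50 with myr-AKT1 and entered only through the vector library, where it is high. No such count was made for lower genes. The list median, with these genes included, was 0.84 in A549 and 0.41 in HCC827. The list was drawn up with earlier results of these data known and is no independent evidence of its direction. Past 1 in both lines were 3 of 25 genes, against 3.11% of all genes: TXNIP, the inhibitor of glucose uptake and thioredoxin, TNFSF10, the death ligand TRAIL, and the transcriptional repressor BCL6. TXNIP had 115 normalized counts in A549-vector, 3188 in A549-myr-AKT1, 2278 in HCC827-vector and 20242 in HCC827-myr-AKT1, log2 fold changes of 4.79 (4.54 to 5.05) and 3.15 (3.09 to 3.21). TNFSF10 had 76.8, 1434, 199 and 619 in the same order of libraries. BCL6 had 964, 2538, 581 and 3606.

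These 3 genes also passed the fit across both lines, with adjusted p-values from limma of 0.00658 for TXNIP, 0.0413 for TNFSF10 and 0.0273 for BCL6, out of 28 list genes in the fit, each higher in 2 of 2 lines, where the fit called 1.29% of all genes higher. Their calls varied between 7 versions of the fit, of which 5 called TXNIP, 4 BCL6 and 3 TNFSF10. In A549 cells the other 7 genes past 1 were BCL2L11, SESN3, PINK1, FBXO32, PCK1, IGFBP1 and ERBB3. PCK1, an enzyme of gluconeogenesis, had 8 reads in A549-vector and 965 in A549-myr-AKT1 and 0 in both HCC827 libraries, and ERBB3, a receptor that FOXO factors are known to induce, had 801 normalized counts in A549-vector and 3324 in A549-myr-AKT1. In HCC827 cells the other 4 were the pro-apoptotic gene BBC3, the stress gene GADD45A and the autophagy genes MAP1LC3B and GABARAPL1, of which GABARAPL1 had 476 normalized counts with vector and 2035 with myr-AKT1. The lower genes were EIF4EBP1 in A549 (-1.10, -1.20 to -1.004) and IGFBP1 in HCC827. IGFBP1 was past 1 in opposite directions, with 417 normalized counts in A549-vector and 1355 in A549-myr-AKT1, and 92.98 and 44.04 in HCC827. Apart from IGFBP1, the genes past 1 in a single line were named after their values were seen. Of the FOXO-repressed genes, CCND1 (cyclin D1) had -0.41 in A549 (-0.46 to -0.36) and -1.07 in HCC827 (-1.13 to -1.01), and CCND2 had 0 to 2 reads.

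**Figure D3:**
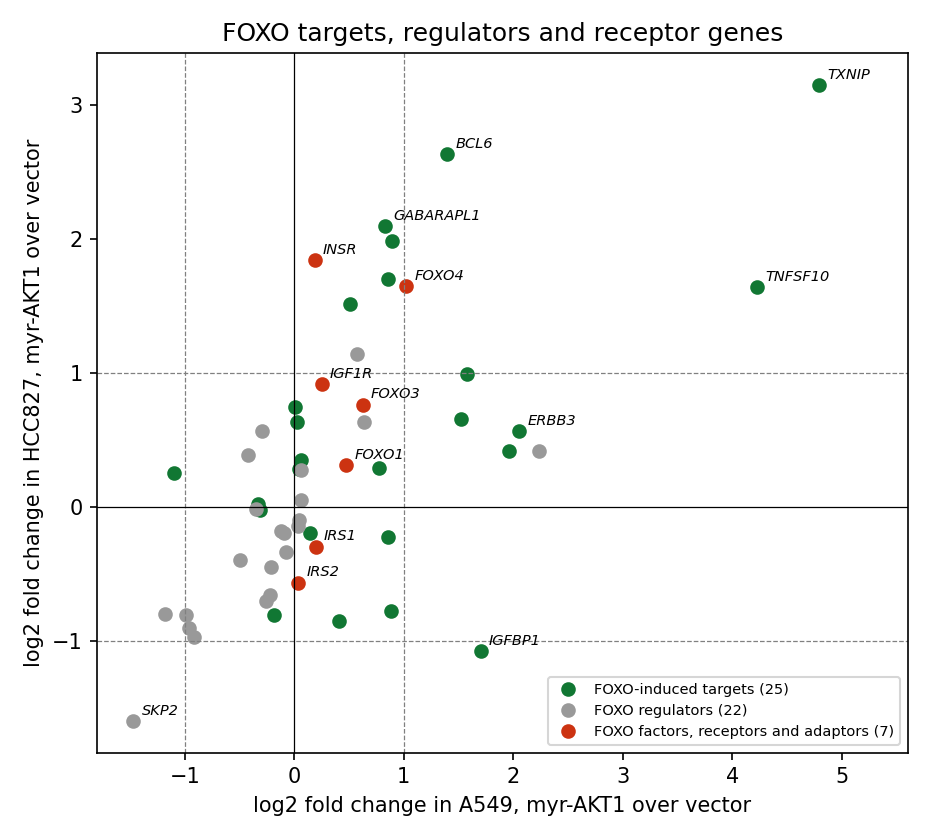
Log2 fold change in A549 (x axis) against HCC827 (y axis) of the 7 genes (red), 25 FOXO-induced targets (green) and 22 FOXO regulators (grey) averaging 50 or more normalized counts in both pairs, 1 point per gene, dashed lines at 1 and -1. TXNIP, TNFSF10, BCL6 and FOXO4 lie past 1 on both axes and SKP2 past -1 on both.

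The genes whose levels over the 4 libraries were most like those of each of the 7 were found by the Euclidean distance between centred log2 levels among 11013 protein-coding genes, a measure that rests on 4 libraries and is a description. The nearest was IRGQ for FOXO1 (distance 0.02), TMC5 for FOXO3 (0.08), MKNK2 for FOXO4 (0.06), SH3PXD2B for INSR (0.08), NIPA1 for IGF1R (0.05), TM9SF3 for IRS1 (0.07) and ADPRHL1 for IRS2 (0.18). MKNK2 had log2 fold changes of 1.03 and 1.63 in A549 and HCC827 cells, and SH3PXD2B of 0.17 and 1.85, beside those of FOXO4 and INSR above. Next in likeness were MAPK7 and ARIH1 for FOXO1, GUCY1B1 and LZTS3 for FOXO3, LDAF1 and CPEB3 for FOXO4, ATP7B and PLPP5 for INSR, DYRK4 and NEO1 for IGF1R, KRT7 and C5orf63 for IRS1, and FAM107B and VAMP1 for IRS2.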

How the data were processed

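RNA of vector and myr-AKT1 cells of 2 lines was sequenced as 4 strand-specific libraries. The methods name poly(A) selection and the labels rRNA depletion. The authors mapped trimmed reads to hg38 with Bowtie2 and counted them per gene with HTSeq, and whether counting used strand is not given in the sources used here. The deposited values are a signal, read counts divided by a size factor per library, although the methods call them RPKM. Dividing by the smallest step gave whole reads (within 0.001) for every gene, save 1 gene in each vector library. Genes were named with GENCODE release 44 (60261 of 60558 matched), and exon length is the union over annotated transcripts, so levels per kilobase understate genes with long unused exons. Fold changes carry no pseudocount. The fit was limma on log2(value + 1) with a mean-variance trend, cell line as a block and genes kept by filterByExpr. No p-value was computed within a line. Intervals and the floor of 3 reads cover counting error only, since reads are not independent molecules. Differences between lines and between ratios use a normal approximation on the log scale. Members and lists were chosen with earlier results of these data known. Genes named are the 7, the listed paralogs, AKT1 as a check, list genes past 1 (log2) in both lines (at most 6 a list) or in opposite directions (at most 4), the 3 genes most like each of the 7, and others as stated. Alternatives were other scalings, pseudocounts, filters, thresholds and tools, and no block. The fits used limma 3.58.1, DESeq2 1.42.0 and edgeR 4.0.16 under R 4.3.3, and the rest Python 3.11.15.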

Additional observations from a re-analysis of the deposited data

Results flagged for a closer look

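IRS1 was higher with myr-AKT1 in A549 (log2 fold change 0.20, counting interval 0.14 to 0.25) and lower in HCC827 (-0.30, -0.38 to -0.21). The HCC827 value minus the A549 value was -0.49, with a counting interval of -0.60 to -0.39. IGFBP1 also moved in opposite directions, by 1.70 in A549 (1.55 to 1.86) and by -1.08 in HCC827 (-1.67 to -0.52). This gives a gap of -2.78 (-3.35 to -2.21). The HCC827 value rests on 117 reads with vector and 35 with myr-AKT1. Neither gap was tested, since each condition has 1 library.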

How the results depend on the processing

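The sign of the within-line log2 fold change was kept in 56 of 56 values under TMM, total reads, size factors over all 4 libraries and a pseudocount of 1. The pseudocount cannot change a sign, and each scaling shifts all genes of a line by the same amount. Only IRS2 in A549 (0.03) lay within the size of such a shift, and all shifts in A549 were upward. The kept signs are therefore a weak check. Size factors over all 4 libraries moved the median of all genes by 0.10 in A549 cells and 0.05 in HCC827 cells, and the other scalings by 0.08 or less. The vector-level ratios between lines kept their sign under TMM and total reads, which were chosen after seeing the data, as was the sum of FOXO3 and FOXO3B, which moved the FOXO3 ratio from 3.52 to 2.29. At a threshold of 2, 0 of the 7 genes were past it in A549 and 0 in HCC827 cells, and of the FOXO-induced targets 4 of 28 were higher and 0 lower in A549 and 3 of 25 higher and 0 lower in HCC827 cells, where 3.76% and 2.69% of all genes were higher and 2.34% and 1.86% lower. Of the 7 genes, 0 were called by limma and 0 by edgeR. In the limma fit 3 were at an unadjusted p under 0.05, as were 3557 of all 19314 genes. DESeq2's Wald test called 1 (FOXO4, adjusted p = 0.0459), and limma with every gene that has a read called 2 (FOXO4 and INSR). IRS1 changed sign in the fit, from -0.05 with limma to 0.0435 with DESeq2. Over all genes, limma called 250 higher and 335 lower, edgeR 196 and 228, DESeq2 616 and 516, TMM scaling 42 and 96, no filter 1101 and 894, and a pseudocount of 0.1 or no block 0 and 0, with 3184 and 631 genes at an unadjusted p under 0.05. The vector and myr-AKT1 libraries pair by cell line, which is the block in the fit, and the labels carry no replicate numbers. Leaving out a library leaves the fit without residual degrees of freedom. Genes with few reads, such as FOXO6 and IRS2 in HCC827 cells, have wide counting intervals.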
